A study of Homo sapiens with 8 samples.

Results

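The DNA damage repair genes described here are 57 genes of the main pathways that find and mend damaged DNA, measured in SQ20B cells in normoxia and in hypoxia. SQ20B is an established cell line from a squamous cell carcinoma of the head and neck. The members were named by symbol and pathway, and all 57 were found among the 14524 genes of the expression table. They comprise 19 genes of homologous recombination, 10 Fanconi anaemia genes, 5 mismatch repair genes, 7 base excision genes, 7 nucleotide excision genes, 5 end-joining genes and 4 damage kinases. The 4 hypoxia replicates were kept at 0.5% oxygen for 16 h, and the 4 normoxia replicates were grouped by their source label and title, since the labels repeat the low-oxygen treatment for them. Both groups are the same line in the same serum-containing medium, with no gene altered and no drug given, and poly(A)-selected RNA was sequenced with a stranded kit. All 8 samples come from 1 tumour line, which limits them as a model of tumours in general.

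For each RefSeq transcript the table gives 1 FPKM value per condition, which combines the replicates of that condition. FPKM is a fragment count corrected for the length of the transcript and the size of the library, so levels can be set side by side between genes. The level of a gene is the sum of its transcripts' FPKM. A change is the log2 of hypoxia over normoxia after 0.1 FPKM was added to both, so a negative value means a lower level in hypoxia. With 1 value per condition there is no spread between replicates, so no standard deviation, p-value or test stands behind any difference below. A gene was called lower or higher where its level differed by at least 1.5-fold, a log2 change of 0.585 in size, and these calls are descriptions of size. Members are set beside the 12103 genes that averaged 0.5 FPKM or more over both conditions, a limit that all 57 members passed. In bulk RNA, fewer cells of one kind and less RNA per cell cannot be told apart.

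As background, cells repair DNA by routes that differ in the lesion they read. Double-strand breaks are rejoined directly by end joining, in which the Ku dimer holds the ends, or are copied from the sister chromatid by homologous recombination, in which BRCA2 loads the recombinase on resected ends. The Fanconi anaemia genes act on crosslinks between the strands, mismatch repair corrects copying errors, base excision removes small damaged bases, and nucleotide excision cuts out bulky lesions such as those made by ultraviolet light. ATM and ATR are the kinases that signal damage, and CHEK1 and CHEK2 are the kinases they activate. Low oxygen has long been studied for its effect on repair in tumours, with recombination and mismatch repair genes described as lowered in hypoxia in several cell systems.

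The libraries carried the response to low oxygen. Of 24 listed hypoxia-response genes, 22 were in the table and passed the FPKM limit, while LDHA and PGK1 were not found under their symbols. All 22 were higher in hypoxia, with a median log2 change of 2.66 and a lowest change of 0.83 (ALDOA, a glycolytic enzyme). Of 10 listed epithelial markers, not all of them squamous, 8 were in the table, 4 above and 4 below 0 (3 below with equal column sums). Their changes ran from -0.63 (KRT6A, at 5.10 and 3.26 FPKM in normoxia and hypoxia) to 0.43 (CDH1). KRT14 and PKP1 were not analysed here. The basal keratin KRT5 was at 398 and 442 FPKM and the squamous factor TP63 at 42.8 and 44.6 FPKM, while EPCAM, DSG3 and SFN were at -0.45, -0.36 and -0.21. Of 7 markers of other cell types, 2 were in the table: CD68 at 2.37 and 2.86 FPKM and CDH5 at 4.78 and 2.83 FPKM. The FPKM values of the table summed to 536005 in normoxia and 458431 in hypoxia, and the median change over all genes tested was -0.07, with quartiles at -0.36 and 0.24. Scaling the columns to equal sums moved that median to 0.15, so changes are best read relative to the median of all genes. Genes of the cell cycle had medians below 0 under each scaling. The 47 tested DNA replication genes had a median change of -0.27, or -0.04 with equal column sums, and the 38 mitosis genes of -0.49, or -0.26, and their part in the changes of the repair genes was not tested.

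Most repair genes sat near their normoxic level. Of the 57 members, 50 (87.7%) stayed within 1.5-fold, against 78.8% of all genes, and their changes ran from -0.57 to 0.32. The calls were 5 members lower (8.77%), where 11.2% of all genes tested were lower, and 2 members higher (3.51%), where 9.94% of all genes were higher. Neither share was above the background at this fold limit, and the share of lower calls was near it. The background was not matched for level: it reaches down to 0.5 FPKM, whereas 42 of the 57 members averaged at least 10 FPKM. By direction alone, 41 members (71.9%) had a change below 0, against 56.4% of all genes, and the median over the members was -0.14. With equal column sums that median was 0.09, against 0.15 over all genes. Then 24 members (42.1%) were below 0, against 36.0% of all genes. The calls were then 1 lower (1.75%, against 4.99% of all genes) and 2 higher (3.51%, against 18.6%). After centring on the median of all genes, 35 members (61.4%) were below 0, against 50.1% of all genes, and 2 were lower and 2 higher (3.51% each), against 8.88% and 12.4% of all genes. Across all members 37 changes lay between the quartiles of all genes.

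**Figure D1:**
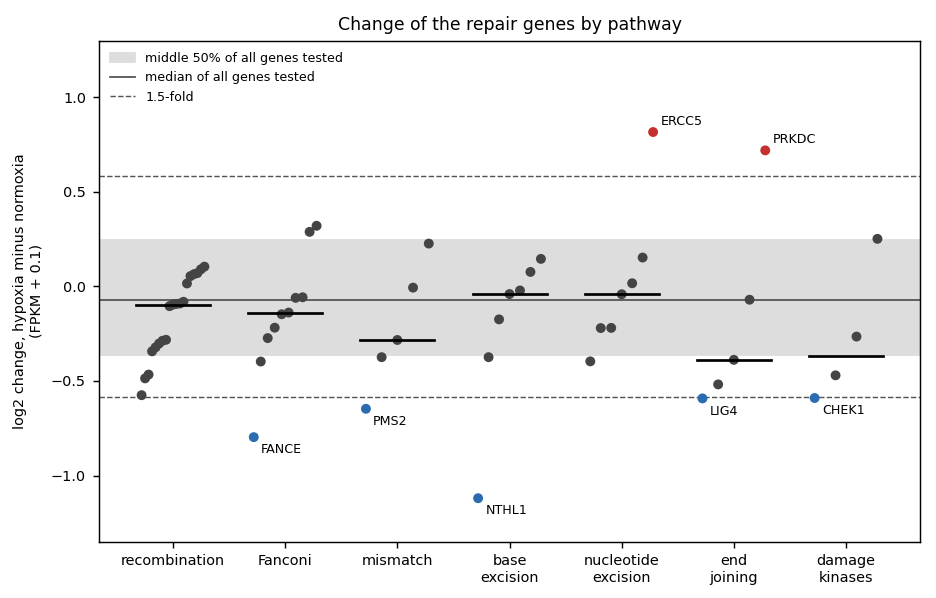
The log2 change (hypoxia minus normoxia, FPKM + 0.1) of each of the 57 repair genes is plotted by pathway, each point 1 gene, with the pathway's median as a black bar and the middle 50% of all 12103 genes tested in grey. The 5 genes called lower (blue) and the 2 called higher (red) are labelled, and LIG4 and CHEK1 lie on the 1.5-fold line.

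By summed level the set is dominated by the Ku genes of end joining. The members summed to 2265 FPKM in normoxia and 1936 in hypoxia, and the 2 Ku genes held 35.5% and 30.5% of these sums. The other 55 members summed to 1461 and 1345 FPKM. Mean levels ran from the 389 FPKM of XRCC6 down to the 1.06 FPKM of ERCC2, and 42 of the 57 members had a mean of at least 10 FPKM.

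**Figure D2:**
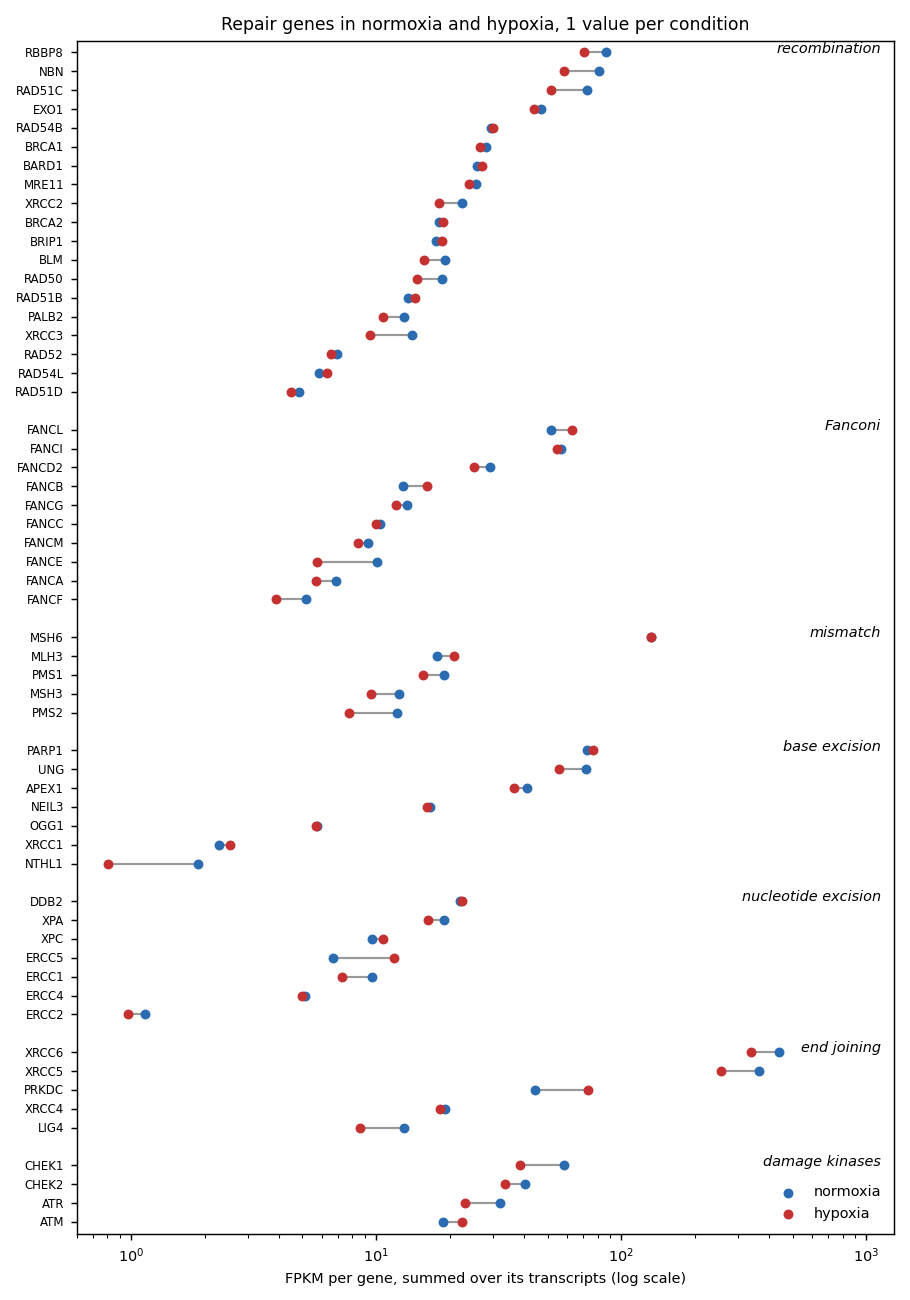
Each row is 1 repair gene, grouped by pathway, with its FPKM (log scale) in normoxia in blue and in hypoxia in red, 1 value per condition. The pair of points lies far apart for NTHL1, FANCE, ERCC5 and PRKDC and nearly coincides for MSH6 and OGG1, and XRCC5 and XRCC6 stand to the right of all other members.

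The 7 members past 1.5-fold belong to 6 of the 7 groups, recombination being the exception. NTHL1, a glycosylase that removes oxidized pyrimidines (GRCh37 chr16:2089816-2097867), was at 1.87 FPKM in normoxia against 0.806 in hypoxia, a change of -1.12. FANCE, the Fanconi core subunit that binds FANCD2 (chr6:35420115-35434881), was at 10.1 and 5.75 FPKM, a change of -0.80. PMS2, an endonuclease subunit of mismatch repair (chr7:6010556-6048761), was at 12.2 and 7.75 FPKM, a change of -0.65. These 3 genes lay at percentiles 1.78, 5.19 and 9.15 of the changes of all genes. LIG4, the ligase of end joining (chr13:108859787-108870716), was at 13.0 and 8.57 FPKM, a change of -0.59. CHEK1, the checkpoint kinase downstream of ATR (chr11:125495058-125546150), was at 58.3 and 38.7 FPKM, a change of -0.59. LIG4 and CHEK1 were just past the limit, whereas XRCC3 of the recombination group was just short of it at -0.57, so the limit runs between changes of nearly equal size.

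The members on the other side were ERCC5 and PRKDC. ERCC5, the nuclease that cuts on the 3′ side of bulky lesions (chr13:103498181-103528345), was at 6.66 FPKM in normoxia against 11.8 in hypoxia, a change of 0.82. PRKDC, the catalytic kinase of end joining, was at 44.5 and 73.4 FPKM, a change of 0.72. They lay at percentiles 94.8 and 93.3 of all genes. The call of ERCC5 was lost when a readthrough transcript over the gene was counted with it, as described further below. All 7 genes kept their sign under each scaling that was tried. With equal column sums NTHL1 alone stayed past the lower limit at -0.92, and FANCE came to -0.57.

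The promoters of NTHL1, FANCE, PMS2 and ERCC5 are shown because these genes hold the largest changes in each direction for which a window was at hand. Each is a window of 300 bases from RefSeq (GRCh38.p14), from 250 bases before the gene's start to 50 after it, written 5′ to 3′ on the gene's strand. Capitals mark matches, on either strand, to the letters ACGTG or GCGTG (the core that hypoxia-inducible factors bind), to CCAAT (the letters read by NFY) and to the E2F letters given further below. The NTHL1 window is chr16:2047785-2048084 on the minus strand, and its CACGTG holds a core match on each strand, the 2 overlapping. The FANCE window is chr6:35452088-35452387 on the plus strand, with 3 core matches. The PMS2 window is chr7:6009057-6009356 on the minus strand, with 1 core match, 3 CCAAT matches and 1 E2F match, and is 1 of 2 windows listed for the gene. The ERCC5 window is chr13:102845782-102846081 on the plus strand, with 2 core matches. A match is a description of letters, and no binding was measured here.
NTHL1: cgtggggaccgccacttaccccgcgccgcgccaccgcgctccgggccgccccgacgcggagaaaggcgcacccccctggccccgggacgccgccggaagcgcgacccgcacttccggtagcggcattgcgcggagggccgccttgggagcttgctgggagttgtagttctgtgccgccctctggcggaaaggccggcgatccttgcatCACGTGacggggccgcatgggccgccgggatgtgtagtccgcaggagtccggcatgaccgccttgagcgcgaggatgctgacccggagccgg
FANCE: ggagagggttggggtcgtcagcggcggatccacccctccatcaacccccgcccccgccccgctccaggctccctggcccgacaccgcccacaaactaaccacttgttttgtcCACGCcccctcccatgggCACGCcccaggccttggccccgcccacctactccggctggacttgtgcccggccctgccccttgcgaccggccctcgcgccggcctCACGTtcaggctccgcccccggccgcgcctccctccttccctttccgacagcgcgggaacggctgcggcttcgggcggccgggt
PMS2: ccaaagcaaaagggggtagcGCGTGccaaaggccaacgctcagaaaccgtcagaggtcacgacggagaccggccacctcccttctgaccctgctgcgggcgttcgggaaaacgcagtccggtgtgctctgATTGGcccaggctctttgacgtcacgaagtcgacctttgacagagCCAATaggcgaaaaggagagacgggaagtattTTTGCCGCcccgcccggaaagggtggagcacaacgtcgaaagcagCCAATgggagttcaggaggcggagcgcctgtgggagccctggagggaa
ERCC5: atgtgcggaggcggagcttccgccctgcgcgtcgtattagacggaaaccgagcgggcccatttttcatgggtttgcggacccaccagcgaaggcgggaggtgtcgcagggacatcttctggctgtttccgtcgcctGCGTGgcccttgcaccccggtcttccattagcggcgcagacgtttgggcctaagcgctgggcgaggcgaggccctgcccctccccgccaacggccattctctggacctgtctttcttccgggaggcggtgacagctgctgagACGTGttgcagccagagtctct

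Core letters were thus present in the windows of genes that differed in direction. They are also common. Of 52 members with a window, 42 (80.8%) held ACGTG or GCGTG in at least 1 window, and 70.0% of tested genes with a window did. Per window, the share was 69.7% of the members' 76 windows, 60.6% of the 13961 windows of tested genes and 48.4% of all 35116 windows. On the columns as deposited, the median change was -0.20 in the members with these letters and 0.04 in those without them, and over all tested genes -0.09 and -0.04. Windows of RAD54B, NBN, FANCI, PRKDC and XRCC5 were not analysed here.

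Of the 4 sets of letters searched, the E2F letters had the share that differed most between repair windows and windows at large. E2F factors switch on genes at the start of DNA synthesis, and their sites were searched on both strands as TTTGGCGC, TTTCCCGC, TTTGGCGG, TTTCGCGC, TTTGCCGC and GGCGGGAA, which can overlap one another. They occurred in 30.3% of the members' windows, 9.37% of the windows of tested genes and 6.18% of all windows. By gene, 18 of 52 members (34.6%) held them, against 12.5% of tested genes. Among these 18 were BLM, BRIP1, EXO1, RAD52, RAD54L, XRCC2 and XRCC3 of recombination and FANCA, FANCC, FANCD2 and FANCL of the Fanconi group. The median change was nearly equal in members with these letters (-0.15) and without them (-0.14). CCAAT was held by 44.7% of the members' windows and 35.7% of those of tested genes, and the cell-cycle letters TTTGAA or TTCGAA by 10.5% and 12.3%. The 27 members with CCAAT had a median change of -0.22 and the other members with a window of -0.09, against -0.08 and -0.07 over all tested genes. For the cell-cycle letters the medians were -0.01 in the 8 members with them and -0.20 in those without, against -0.11 and -0.07 over all tested genes.

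Recombination genes made up the largest group and held no call in either direction. Of the 19 genes, 13 were below 0. The median was -0.10, or 0.13 with equal column sums, against -0.07 and 0.15 over all genes. RBBP8, which starts the resection of broken ends, had the highest mean level at 86.8 FPKM in normoxia against 70.4 in hypoxia, a change of -0.30. The genes best known from hereditary breast cancer were near their normoxic level. BRCA1 was at 28.1 and 26.4 FPKM, a change of -0.09. Its partner BARD1 was at 25.9 and 27.1 FPKM, a change of 0.07. BRCA2 was at 18.0 and 18.7 FPKM, a change of 0.06, and these 3 genes all lay well inside the quartiles of all genes. PALB2, which links BRCA1 to BRCA2, was at 13.0 and 10.7 FPKM, a change of -0.29.

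The paralogues of the recombinase, which help it onto DNA, spanned both signs. RAD51C was the most abundant, at 72.4 FPKM in normoxia against 51.6 in hypoxia, a change of -0.49. XRCC3 was at 14.0 and 9.39 FPKM, a change of -0.57, and XRCC2 at 22.5 and 18.0 FPKM, a change of -0.32. RAD51D and RAD51B were closer to their normoxic level, with changes of -0.10 and 0.09. The 5 paralogues together summed to 127 and 97.9 FPKM, with a median change of -0.32, and RAD51C, XRCC2 and XRCC3 stayed below 0 under each scaling. RAD51C and XRCC3 form one complex and RAD51B, RAD51D and XRCC2 belong to the other with RAD51C.

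The MRN complex, which senses and trims broken ends, was below 0 in all 3 subunits. NBN was at 80.8 FPKM in normoxia against 58.5 in hypoxia, a change of -0.47, RAD50 at 18.6 and 14.7 FPKM, a change of -0.34, and MRE11 at 25.6 and 23.8 FPKM, a change of -0.10. None of the 3 reached 1.5-fold, and MRE11 was above 0, at 0.12, with equal column sums, where the median of all genes was 0.15. The other recombination genes were BLM, EXO1, RAD52, RAD54L, RAD54B and BRIP1. The helicase BLM was at -0.28, the nuclease EXO1 at -0.09 and the annealing factor RAD52 at -0.08. The motor proteins RAD54L and RAD54B were at 0.10 and 0.02, and the helicase BRIP1 at 0.07.

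Among the 10 Fanconi genes, 8 were below 0 and 1 was lower. The median was -0.14, or 0.08 with equal column sums, against -0.07 and 0.15 over all genes. FANCL, the ubiquitin ligase of the core complex, had the highest mean level, at 51.6 FPKM in normoxia against 63.1 in hypoxia, a change of 0.29. FANCB, which sits beside FANCL in the same module, was at 12.9 and 16.1 FPKM, a change of 0.32. On the columns as deposited, FANCL and FANCB were the Fanconi genes above 0, and the remaining core genes listed were all below it. FANCE was at -0.80, FANCF at -0.40, FANCA at -0.27, FANCG at -0.15, FANCM at -0.14 and FANCC at -0.06. With equal column sums FANCG, FANCM and FANCC were above 0, at 0.077, 0.085 and 0.163, while the median of all genes was 0.153. FANCE, FANCF and FANCA stayed below 0. The 8 core genes summed to 120 and 125 FPKM as deposited, so the summed level was not lower although 6 of 8 genes were below 0 there. FANCD2 and FANCI, the pair that the core complex ubiquitinates, were at -0.22 and -0.06, and at 0.01 and 0.17 with equal column sums.

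The mismatch group held MSH3, MSH6, MLH3, PMS1 and PMS2. MSH6, which reads mismatches of single bases, was the most abundant at 133 FPKM in normoxia against 132 in hypoxia, a change of -0.01. Its counterpart for larger loops, MSH3, was at 12.4 and 9.55 FPKM, a change of -0.37. Of the MutL partners, PMS2 was lower at -0.65, PMS1 was at -0.28 and MLH3 was above its normoxic level at 0.23. The median was -0.28 and stayed below 0, at -0.06, with equal column sums. PMS2 has near-identical copies elsewhere in the genome, as do CHEK2 and FANCD2, and reads of these genes may be split among the copies.

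The median changes of the base excision and nucleotide excision members were close to that of all genes. Single members were far from it, such as NTHL1 at -1.12 and ERCC5 at 0.82. Other genes of these 2 pathways, described further below, had medians of -0.23 and -0.25. Of 20 other base excision genes, 3 (15.0%) were lower, and of 20 other nucleotide excision genes, 5 (25.0%), against 11.2% of all genes. With equal column sums these were 1 (5.0%) and 2 (10.0%), against 4.99% of all genes. The 7 base excision genes had a median change of -0.04, or 0.18 with equal column sums and 0.03 after centring on all genes. PARP1, which marks broken strands with poly(ADP-ribose), had the highest mean level, at 72.6 FPKM in normoxia against 76.6 in hypoxia, a change of 0.08. UNG, which removes uracil from DNA, was at 72.1 and 55.6 FPKM, a change of -0.37. NTHL1 was the only one of the 7 past 1.5-fold, from a low level. The endonuclease APEX1 was at -0.17, and the oxidized-base glycosylases OGG1 and NEIL3 were at -0.02 and -0.04, while the scaffold XRCC1, at 2.28 and 2.53 FPKM, was at 0.15.

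The 7 nucleotide excision genes had a median change of -0.04, or 0.18 with equal column sums and 0.03 after centring on all genes. DDB2, a sensor of ultraviolet lesions, had the highest mean level, at 22.1 FPKM in normoxia against 22.3 in hypoxia, a change of 0.02. The damage sensor XPC was at 0.15 and XPA, which checks the lesion, at -0.22. The nucleases that cut on either side of the lesion went apart: ERCC5 was higher at 0.82, while ERCC1 was at -0.40 and its partner ERCC4 at -0.04. ERCC2, a helicase subunit of the factor TFIIH, was at 1.14 and 0.968 FPKM, a change of -0.22.

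End joining held the highest levels and a call in each direction. XRCC6, the smaller Ku subunit (chr22:42017167-42060052), was at 441 FPKM in normoxia against 337 in hypoxia, a change of -0.39. XRCC5, the larger Ku subunit (chr2:216972187-217071026), was at 364 and 254 FPKM, a change of -0.52. Neither Ku gene reached 1.5-fold, and both stayed below 0 under each scaling. PRKDC, the kinase that Ku recruits to the ends, was higher at 0.72. At the last step, LIG4 was lower at -0.59 and its scaffold XRCC4 was at -0.07, with 19.0 and 18.1 FPKM. The genes of this one pathway thus spanned from -0.59 to 0.72, and their median was -0.39, or -0.16 with equal column sums and -0.10 after quantile normalization.

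Of the 4 damage kinases, 3 were below 0, with a median change of -0.37, or -0.14 with equal column sums. ATR, which responds to stalled replication, was at 31.9 FPKM in normoxia against 23.0 in hypoxia, a change of -0.47. CHEK1, its target, was the most abundant and was lower, as given above. On the branch that answers to double-strand breaks, ATM was at 18.7 and 22.3 FPKM, a change of 0.25, and CHEK2 at 40.3 and 33.5 FPKM, a change of -0.27. The 4 CHEK1 transcripts that passed the FPKM limit were all below 0, and the main one held 62.4% of the gene's FPKM in normoxia and 62.8% in hypoxia.

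The members have 123 listed transcripts, and 33 members have more than 1. At the transcript level, 14 of 106 transcripts that passed the FPKM limit were lower (13.2%) and 5 were higher (4.72%), against 14.3% and 10.5% of all 18190 transcripts of the table that passed it. The shares of a gene's transcripts moved by over 10 percentage points in 2 of the 33 members, FANCC and RAD54L, against 12.2% of all genes with more than 1 transcript and an average of at least 1 FPKM, which were 597 of 4881 genes. The median of the largest shift per gene was 2.85 points in the members and 2.94 in all genes.

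FANCC as a gene was near its normoxic level, but its transcripts went apart. The transcript NM_000136 was at 5.80 FPKM in normoxia and 7.58 in hypoxia, and its share went from 55.9% to 76.2%. The transcript NM_001243743 was at 3.154 and 1.254 FPKM, and its share went from 30.4% to 12.6%. In RAD54L, NM_003579 was at 2.92 and 3.88 FPKM and NM_001142548 at 2.93 and 2.43 FPKM, so that a nearly even split in normoxia became 61.5% against 38.5% in hypoxia. Transcripts of a gene share exons, and their FPKM values are estimates that divide common reads. PRKDC lay almost wholly in 1 transcript, NM_006904, at 44.3 and 72.1 FPKM, so its call does not rest on the division.

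**Figure D3:**
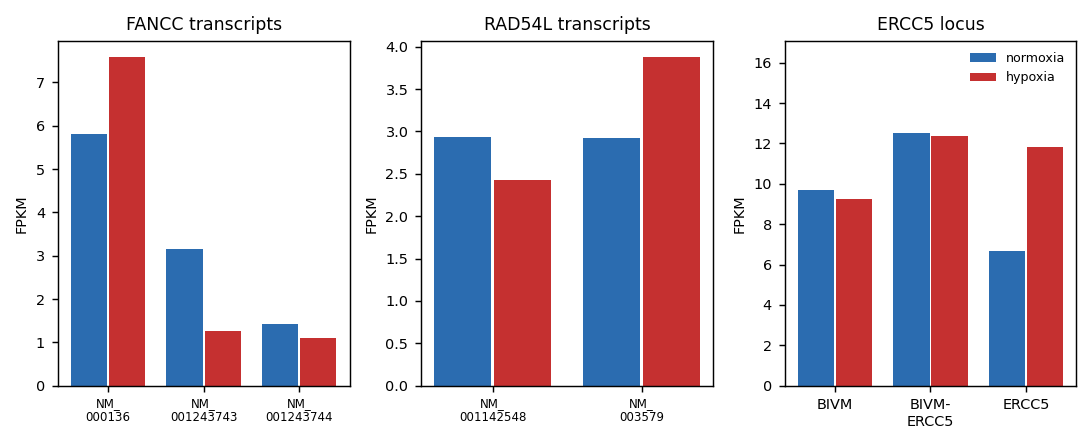
Bars give the FPKM (axis from 0) of each listed transcript of FANCC and RAD54L and of the genes BIVM, BIVM-ERCC5 and ERCC5, in normoxia (blue) and hypoxia (red), 1 value per condition. NM_000136 of FANCC and NM_003579 of RAD54L are higher in hypoxia and the other transcripts of both genes are lower, and in the last panel ERCC5 is the gene whose bars differ.

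The call of ERCC5 depended on whether a readthrough transcript was counted with the gene. The table also lists BIVM-ERCC5, a readthrough transcript that joins the upstream gene BIVM to ERCC5 and shares the ERCC5 exons. BIVM-ERCC5 was at 12.5 FPKM in normoxia and 12.4 in hypoxia, BIVM at 9.69 and 9.26 FPKM, and the neighbour POGLUT2 at 12.3 and 12.6 FPKM. With the readthrough added, ERCC5 was at 19.2 and 24.2 FPKM, a change of 0.33, which is no longer past 1.5-fold. RAD51D has a readthrough of the same kind, RAD51L3-RFFL, and with it added the change of RAD51D was 0.03 in place of -0.10. In all, 15 members share their locus in the table with another named gene. ERCC1 is one of them, and there POLR1G, read from the opposite strand, was at 6.58 and 2.05 FPKM. Whether counting used the strand is not given in the sources used here. Over the 42 members alone in their locus, 4 were lower (9.52%, against 11.2% of all genes) and 1 was higher (2.38%, against 9.94%).

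Several repair genes start head to head with another gene, with both start sites in one stretch of promoter. By a distance limit of 1000 bases between start sites (GRCh37), chosen after the values were seen, 14 members had such a neighbour. Member and neighbour had changes of the same sign in 10 of 14 pairs (71.4%), and all such pairs of genes in 445 of 680 (65.4%). Across pairs of genes, which are not independent and share both columns, Pearson's r was 0.30 for the members and 0.31 for all pairs. Spearman's rho was 0.40 and 0.24, and the median size of the difference within a pair was 0.39 and 0.34.

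PMS2 is paired with AIMP2, a scaffold of the tRNA synthetase complex whose start lies 223 bases away. AIMP2 was at 80.2 FPKM in normoxia against 31.6 in hypoxia, a change of -1.34, so both genes of the pair were lower. NTHL1 went apart from TSC2, a brake on mTOR signalling that starts 151 bases away and was at 0.971 and 1.05 FPKM, a change of 0.10. PRKDC went apart from MCM4, a subunit of the replicative helicase, which was at 161 and 156 FPKM, a change of -0.05. XRCC6 and DESI1, CHEK2 and HSCB, and APEX1 and OSGEP had changes of the same sign in which the neighbour's was the larger, at -0.81, -0.70 and -0.67. FANCB and MOSPD2 differed by 0.02, and PALB2 with DCTN5 and PMS1 with ORMDL1 by 0.015 each.

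**Figure D4:**
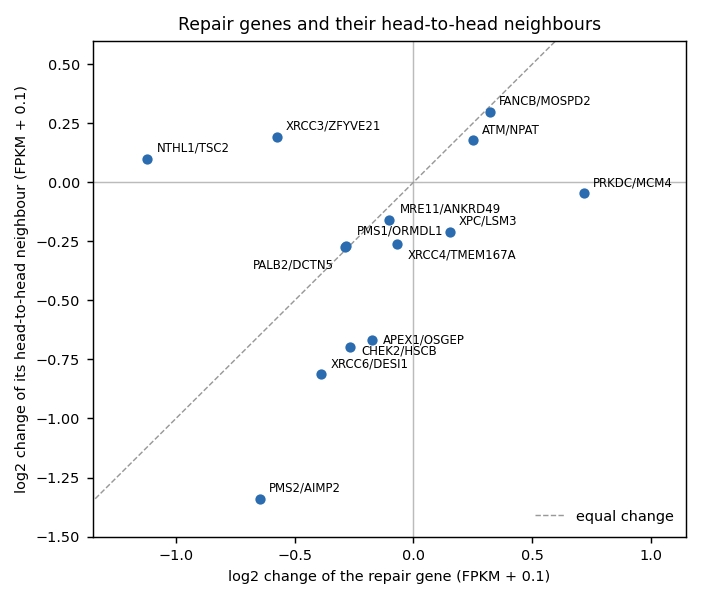
Each point is 1 of 14 pairs of a repair gene and the gene that starts head to head with it within 1000 bases, with the log2 change of the repair gene on the x axis and of the neighbour on the y axis (hypoxia minus normoxia, FPKM + 0.1). The dashed line marks equal change, PMS2/AIMP2 lies at the lower left, and NTHL1/TSC2, XRCC3/ZFYVE21, PRKDC/MCM4 and XPC/LSM3 lie in quadrants of opposite sign.

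Other genes of the same pathways were taken from a list of 131 symbols, of which EME2, SLX1A, MSH4, RFC1, MGMT and SHLD3 were not found in the table. Of 120 that passed the FPKM limit, 89 were below 0, with a median change of -0.20. With equal column sums 59 of 121 were below 0 and the median was 0.02, against 0.15 over all genes. The calls were 14 lower (11.7%, against 11.2% of all genes) and 2 higher (1.67%, against 9.94%), and with equal column sums 5 lower and 5 higher (4.13% each, against 4.99% and 18.6% of all genes). The 3 lowest were ALKBH2, TIPIN and GTF2H3. ALKBH2, which reverses alkylation of bases, was at 9.14 FPKM in normoxia against 4.10 in hypoxia, a change of -1.14. TIPIN, of the fork protection complex, was at 64.1 and 29.8 FPKM, a change of -1.10. GTF2H3, a subunit of TFIIH, was at 38.2 and 21.3 FPKM, a change of -0.84.

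The 3 highest were POLI, WDR48 and TIMELESS. POLI, a translesion polymerase, was at 1.88 and 3.22 FPKM, a change of 0.74. WDR48, the cofactor of the deubiquitinase that acts on FANCD2, was at 17.0 and 26.0 FPKM, a change of 0.61. TIMELESS was at 8.07 and 12.1 FPKM, a change of 0.58 that did not reach 1.5-fold, while its binding partner TIPIN had one of the lowest values. By list, the median change was -0.44 for 6 other mismatch genes, -0.36 for 10 other Fanconi genes, -0.26 for 10 other end-joining genes, -0.25 for 20 other nucleotide excision genes and -0.23 for 20 other base excision genes. It was -0.13 for 26 other recombination genes, -0.14 for 20 damage signalling genes and -0.10 for 8 translesion genes. With equal column sums the medians of these 3 lists were above 0, at 0.09, 0.09 and 0.13, while those of the other 5 lists stayed below 0. Each list's median was below that of all genes both as deposited (-0.07) and with equal column sums (0.15). The translesion median was also above 0, at 0.01, after quantile normalization, where that of all genes was -0.02. The 6 other mismatch genes were MSH5, at 0.07, and PCNA, RFC2, RFC3, RFC4 and RFC5, from -0.70 to -0.14. PCNA and the RFC genes also serve DNA replication, so the median of that list is not one of mismatch repair alone.

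**Figure D5:**
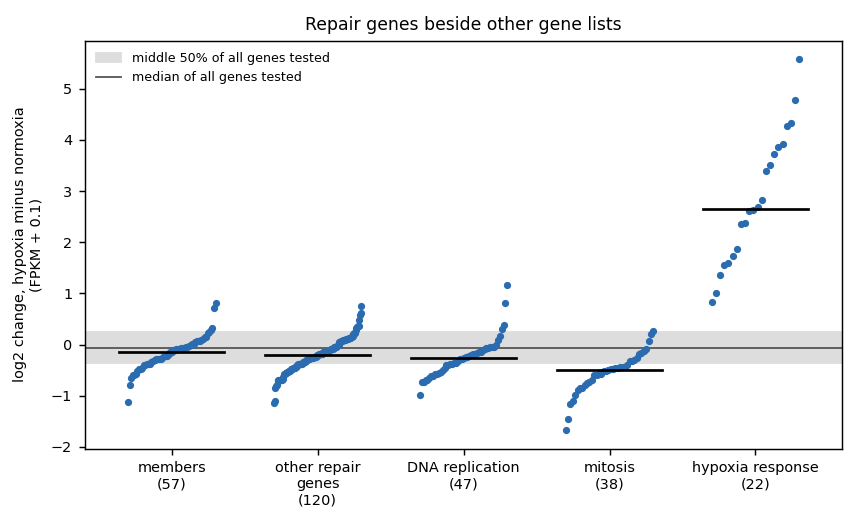
Each point is the log2 change (hypoxia minus normoxia, FPKM + 0.1) of 1 gene, sorted within its list, with the list's median as a black bar, the number of genes tested in brackets and the middle 50% of all genes in grey. The medians are -0.14 for the 57 repair genes (labelled members), -0.20 for other repair genes, -0.27 for DNA replication, -0.49 for mitosis and 2.66 for the hypoxia response.

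The share of lower calls was 8.77% in the repair genes and 11.2% in all genes. Of 47 DNA replication genes, 8 (17.0%) were lower and 2 (4.26%) higher, and of 38 mitosis genes, 14 (36.8%) were lower and none was higher. With equal column sums these counts were 1 lower (2.13%) and 3 higher (6.38%) for replication and 8 lower (21.1%) and none higher for mitosis, against 4.99% lower and 18.6% higher of all genes. The share of genes below 0 was 71.9% in the members, 87.2% in the replication genes and 92.1% in the mitosis genes, against 56.4% of all genes. With equal column sums these shares were 42.1%, 55.3% and 81.6%, against 36.0% of all genes. These are counts of genes in 1 pair of columns, and the differences between lists were not tested.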

How the data were processed

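Polyadenylated RNA of 4 normoxia and 4 hypoxia replicates of SQ20B was sequenced. The authors aligned reads with STAR 2.3.0.1 to hg19 and quantified RefSeq transcripts with Cufflinks 2.1.1, per the submitters' processing notes and the study's methods. The deposited FPKM values are the authors', 1 per condition over its replicates, so depths of single samples were not analysed here and limma, planned for single replicates, was not run. The deposited columns of fold change, test statistic, p-value and q-value are the authors' comparison and were not used. The members and lists were chosen with earlier results of these data known.

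Of 24812 table entries, 24289 (97.9%) were paired with symbols by the RefSeq annotation of GRCh38.p14, used for names only, and 15 identifiers were listed more than once. FPKM was summed per gene, 0.1 was added before taking log2, and genes that averaged 0.5 FPKM or more were counted. The pseudocount understates changes of low genes. Positions are those of GENCODE on GRCh37, the build of hg19, counted from 1. Promoter windows are those of RefSeq on GRCh38.p14. Named with both values were members past 1.5-fold, the highest member of each pathway, members with transcript shares moved by over 10 points, and the 3 lowest and 3 highest other pathway genes that averaged 1 FPKM or more. Further members, transcripts and neighbours were given values for their role, chosen after their values were seen. The calculations were tested on simulated data. Python 3.11.15, numpy 2.4.6, pandas 2.3.3 and matplotlib 3.10.9 were used.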

Additional observations from a re-analysis of the deposited data

How the results depend on the processing

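The count of 5 lower members depended on scaling and fold. It was 3 (against 8.52% of all genes) with a pseudocount of 1, 1 (against 4.99%) with FPKM columns scaled to equal sums, 2 (against 8.88%) when centred on the median of all genes, 3 (against 9.72%) after quantile normalization, 16 (28.1%, against 27.8% of all genes) at a fold limit 25% over equal levels and 1 (1.75%, against 2.62%) at a fold of 2. The count of 2 higher members was 0 at a fold of 2, past which 3.21% of all genes were higher, and 1 with readthrough transcripts added or with members alone in their locus, both alternatives chosen after seeing the data. With equal sums the median of all genes was 0.153. The median changes were then 0.085 for all members, 0.125 for recombination, 0.081 for Fanconi, -0.059 for mismatch, 0.184 for base excision, 0.18 for nucleotide excision, -0.162 for end joining and -0.143 for the damage kinases. After quantile normalization they were -0.096 for end joining and -0.237 for the damage kinases. With the highest transcript only, end joining was at -0.518, and with members alone in their locus the damage kinases were at -0.265. The equal-sums scaling shifts all genes nearly alike by construction. No gene past 1.5-fold changed sign under the alternatives run. Leaving out replicates was not run, since each column combines its replicates. No paired analysis was possible because the columns carry no single replicates. Depth of single samples was not analysed here, so no counting interval stands behind low levels such as those of NTHL1 and ERCC2.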
